A study of Mus musculus with 4 samples.

Results

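Messenger RNA of 10 genes that license and start DNA replication was measured in esophageal tumours of mice. The 10 genes are Mcm2, Mcm3, Mcm4, Mcm5, Mcm6, Mcm7, Mcm10, Cdc6, Cdt1 and Pcna, out of 14157 genes listed in the deposited table. They were chosen by name, as genes of replication licensing together with Pcna, and by having a listed value. The names were picked with earlier results of these data known, so differences between the genotypes are given as descriptions and nothing rests on the choice of genes.

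All 4 libraries came from C57BL/6 mice, and every tumour arose under 4NQO, a carcinogen that forms bulky DNA adducts. Replicates 1 and 8 carried the genotype label S100A14 CKO and are called KO, and replicates 3 and 6 were wild type (WT), so n = 2 per group. The labels name no promoter behind the deletion, no age, and no animal for each library. The p-values therefore cover only the spread among the 4 libraries, which may be technical. S100a14, the deleted gene, had 0 and 1 reads in KO replicates 1 and 8, against 463 and 347 reads in WT replicates 3 and 6.

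Before DNA can be copied, each origin must be licensed. The origin recognition complex, CDC6 and CDT1 load the ring-shaped MCM2-7 complex onto DNA in G1, and the loaded ring later becomes the core of the replicative helicase. CDC45 and the GINS complex join the ring at firing, MCM10 is needed for its activation, and PCNA is the sliding clamp that holds the DNA polymerases on the template. Genes of this set are classic targets of the E2F transcription factors, and in stratified epithelium MCM proteins mark the cells that can still divide, in and near the basal layer.

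Because E2F control is a textbook property of these genes, their promoters were searched for E2F-type letters. The RefSeq table (build GRCm38.p6, 250 bases before to 50 bases after each start site) held a promoter for 9 of the 10 members, Mcm7 with 2. The motifs searched were TTTCGCGC, TTTGGCGC, TTTCCCGC and TTTGCCGC on both strands, which can overlap one another. At least 1 motif was present for 6 of these 9 members. Counted by promoter, the share was 60% of the members' 10 promoters and 23.5% of the 115 promoters of other replication genes. It was 3.93% of the 11713 promoters of tested genes and 2.26% of all 32851 promoters. No such letters were found in the window of Mcm2, Mcm10 or Pcna. The places found before the start site of Mcm5, Mcm6, Mcm7 and Cdc6 are shown 5′ to 3′ on the gene's strand, with 20 bases on either side and the matched letters in capitals. The first 2 show that Mcm5 and Mcm6 hold overlapping motifs on opposite strands, 12 bases in all.

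Mcm5, chr8:75109336-75109387, + strand: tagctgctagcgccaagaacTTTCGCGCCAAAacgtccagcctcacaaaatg
Mcm6, chr1:128359784-128359835, − strand: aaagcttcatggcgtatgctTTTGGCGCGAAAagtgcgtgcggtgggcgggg
Mcm6, chr1:128359725-128359772, − strand: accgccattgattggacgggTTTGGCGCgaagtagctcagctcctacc
Mcm7, chr5:138172021-138172068, − strand: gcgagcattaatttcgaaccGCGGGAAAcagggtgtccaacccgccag
Cdc6, chr11:98907993-98908040, + strand: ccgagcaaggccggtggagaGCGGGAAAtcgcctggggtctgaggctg

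A further motif lay after the start site in Mcm3 (2 places), Mcm7 and Cdt1. A match of letters is a description of the sequence, and binding was not measured here.

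The libraries held 11132019 to 16182109 reads over the listed genes, of which 1052423 to 2107060 fell on nuclear protein-coding genes. Values are the authors' scaled reads, and 1 read equals 0.220 and 0.258 in KO replicates 1 and 8 and 0.193 and 0.318 in WT replicates 3 and 6. Ribosomal RNA genes took 50.2% and 11.9% of the reads in KO replicates 1 and 8 and 21.2% and 52.3% in WT replicates 3 and 6. The 10 members had between 15 and 455 reads per library. KO replicate 8 stood apart from the other libraries: its log2 values correlated with those of the other libraries at Pearson's r = 0.769 to 0.816 across genes, while the remaining pairs of libraries had 0.908 to 0.915. Krt5 and Krt14, keratins of basal squamous cells, were present in every library. Krt5 had 8751 and 1057 in the KO libraries and 8370 and 10079 in the WT libraries. Krt14 had 7872 and 2122 against 11878 and 8730. Krt15, also a basal keratin, had 131 and 2.58 against 455 and 123, and its value in KO replicate 8 was 10 reads. Other basal genes went the other way: of 9 on the basal keratinocyte list, 4 were higher in KO and 5 lower. In KO replicate 8, Itga6, Lama3 and Bnc1 had 282, 691 and 64.2, each above both WT libraries. In bulk tumours, fewer cells of a type and less RNA per cell cannot be told apart.

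Across the set, 8 of the 10 members had a lower mean log2 value in KO tumours and 2 a higher one, but no member passed the threshold. The count past a limma adjusted p of 0.05, over all genes tested, was 0 of 10, and edgeR's quasi-likelihood test and DESeq2 on the recovered reads also gave 0. At an unadjusted p under 0.05 there was 1 member, Pcna, against 5.25% of all tested genes. Over all 12304 genes, limma called 0 higher (0%) and 1 lower, S100a14 itself, which is 0.00813% in that direction and in all. The members' median log2 difference was −0.44, against −0.03 for all tested genes. In 5 members, Mcm2, Mcm3, Mcm4, Mcm7 and Pcna, both KO libraries lay below both WT libraries, and in none did both lie above. That pattern held for 19.3% of all tested genes in the lower direction and 14.5% in the higher one, and for 18.7% and 13.8% of the 6436 genes whose mean level was within the range of the members.

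**Figure D1:**
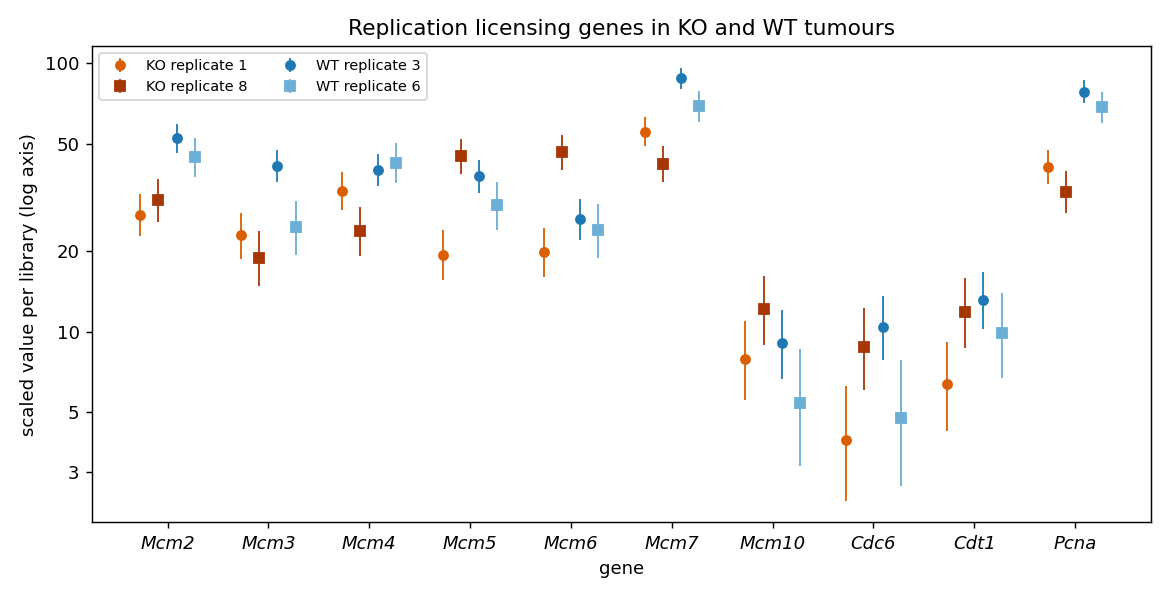
Scaled value of each member (log axis) in KO replicates 1 and 8 and WT replicates 3 and 6, with 95% exact Poisson intervals for counting error. Both KO libraries sit below both WT libraries for Mcm2, Mcm3, Mcm4, Mcm7 and Pcna, while KO replicate 8 has the highest value for Mcm5, Mcm6 and Mcm10.

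The 6 subunits of the helicase ring did not all follow one pattern. Mcm2 (ENSMUSG00000002870, chromosome 6), whose product also binds histones, had 27.3 and 30.9 in KO replicates 1 and 8 and 52.5 and 44.8 in WT replicates 3 and 6. The groups did not overlap, and the 2 KO values were close to each other. The mean of Mcm2 was 29.1 ± 2.58 in KO and 48.6 ± 5.45 in WT (SD, n = 2 each), a log2 difference of −0.72 (SE 0.41, limma adjusted p = 0.926). Mcm7 (ENSMUSG00000029730, chromosome 5), whose product forms with MCM4 and MCM6 a subcomplex with helicase activity in vitro, had 55.6 and 42.3 in the KO libraries and 87.8 and 69.3 in the WT libraries. Both of its KO values were below both of its WT values. Its mean was 48.9 ± 9.46 in KO and 78.5 ± 13.1 in WT (SD, n = 2 each), a log2 difference of −0.67 (SE 0.42, limma adjusted p = 0.940). Mcm7 overlaps Cops6 and Ap4m1 on the opposite strand, and no source used here says whether reads were assigned by strand. Ap4m1 had 10.6 and 4.12 in the KO libraries and 14.5 and 11.8 in the WT libraries, and Cops6 had 14.1 and 19.8 against 14.3 and 12.4.

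Mcm4 (ENSMUSG00000022673, chromosome 16), whose product is a main target of the kinase that fires origins, had 33.4 and 23.7 in the KO libraries and 40.1 and 42.6 in the WT libraries. Its log2 difference was −0.54 (SE 0.43, limma adjusted p = 0.954), with 28.6 ± 6.87 in KO and 41.4 ± 1.72 in WT (SD, n = 2 each). Leaving out KO replicate 8 gave −0.30 for Mcm4. Mcm3 (ENSMUSG00000041859, chromosome 1), whose product in yeast makes the first contact of the ring with the origin recognition complex and Cdc6, had 22.9 and 18.8 in the KO libraries and 41.5 and 24.5 in the WT libraries. The groups of Mcm3 did not overlap, but WT replicate 6 was nearer to KO replicate 1 than to WT replicate 3. Its log2 difference was −0.60 (SE 0.46, limma adjusted p = 0.954), and it was −0.23 without WT replicate 3 and −0.97 without WT replicate 6.

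Mcm5 and Mcm6 split the KO libraries. Mcm5 (ENSMUSG00000005410, chromosome 8), whose product forms the ring's gate with MCM2, had 19.4 and 45.1 in KO replicates 1 and 8, against 37.8 and 29.5 in WT replicates 3 and 6. KO replicate 1 was thus the lowest of the 4 libraries and KO replicate 8 the highest. The same order held for Mcm6 (ENSMUSG00000026355, chromosome 1), which had 19.8 and 46.6 in KO replicates 1 and 8, against 26.3 and 23.8 in WT replicates 3 and 6. Their log2 differences between the groups were −0.17 for Mcm5 (SE 0.52, limma adjusted p = 0.998) and 0.27 for Mcm6 (SE 0.52, limma adjusted p = 0.997). Mcm5 was at −0.76 without KO replicate 8 and 0.42 without KO replicate 1. For Mcm6 these values were −0.32 and 0.87, so the direction of both genes depended on the KO library kept.

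The 2 KO libraries differed in Mcm5 and Mcm6 by more than counting error. The ratio of KO replicate 8 to KO replicate 1 was 2.33 for Mcm5 (95% exact binomial interval on the reads 1.79 to 3.05) and 2.36 for Mcm6 (1.82 to 3.07). For Mcm4 and Mcm7 the ratio was below 1, at 0.709 (0.541 to 0.925) and 0.760 (0.620 to 0.928). The intervals of Mcm2 (1.13, 0.875 to 1.47), Mcm3 (0.822, 0.601 to 1.12) and Pcna (0.808, 0.641 to 1.02) included 1. These intervals cover counting error only. Gaps of this size were not rare between these 2 libraries: 9.72% of all tested genes were at least as far above KO replicate 1 in KO replicate 8 as Mcm5, and 9.46% as far as Mcm6. Among genes at the members' levels the shares were 7.75% and 7.49%. In the other direction, 33% of all tested genes were at least as far below KO replicate 1 as Mcm4, and 36.5% as far as Mcm7.

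Within a library, the balance among the subunits can be read without any scaling between libraries. The ratio of Mcm6 to Mcm2 was 0.726 and 1.51 in KO replicates 1 and 8, against 0.500 and 0.532 in WT replicates 3 and 6. Mcm5 to Mcm3 gave 0.846 and 2.40 in the same KO libraries, against 0.912 and 1.21 in the WT libraries, and Mcm6 to Mcm4 gave 0.592 and 1.97, against 0.654 and 0.560. All 3 ratios were highest in KO replicate 8, and for the last of them KO replicate 1 lay between the WT libraries. Per kilobase of the transcript with the longest coding sequence, Mcm7 took 33.4% of the summed MCM2-7 level in KO replicate 1. It took 21.7% in KO replicate 8, against 32.8% and 31.8% in the WT libraries. Mcm6 took 12.1% and 24.4% in the KO libraries, against 9.99% and 11.1% in the WT libraries. Mcm5 took 10.2% and 20.3%, against 12.4% and 11.9%. Mcm7 ranked first per kilobase in KO replicate 1, WT replicate 3 and WT replicate 6, and Mcm6 ranked first in KO replicate 8. With the length of all exons merged in place of the transcript, Mcm7 again ranked first in those 3 libraries, and Mcm5 in KO replicate 8. The order of the other subunits moved with the length used.

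**Figure D2:**
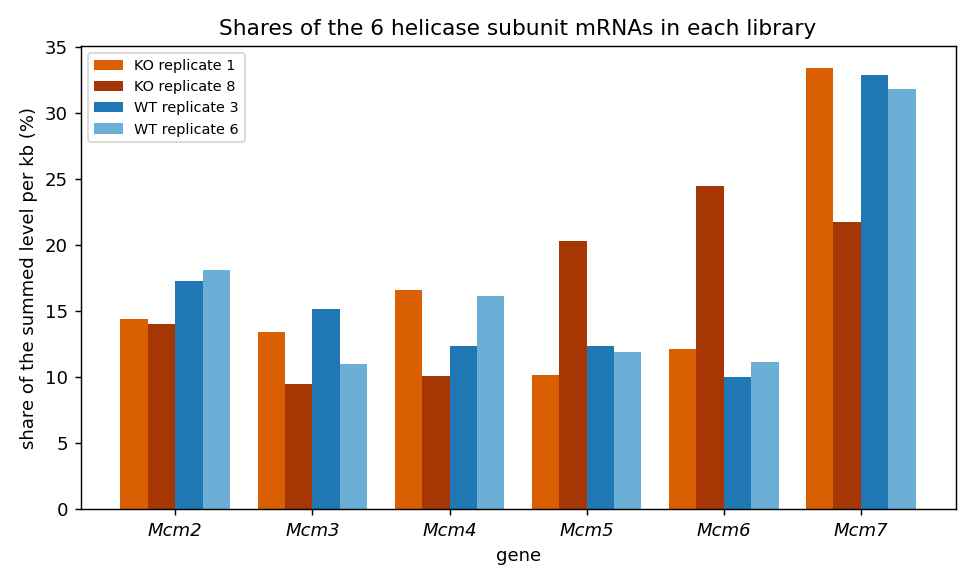
Share (%) of the summed level per kilobase of transcript taken by each of Mcm2 to Mcm7, for KO replicates 1 and 8 and WT replicates 3 and 6, with no error bars since each bar is 1 library. Mcm7 holds about the same share in KO replicate 1 (33.4%) and the WT libraries (32.8% and 31.8%), while KO replicate 8 has a lower share of Mcm7 (21.7%) and higher shares of Mcm5 (20.3%) and Mcm6 (24.4%).

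The loaders had few reads, 15 to 68 per library. Cdc6 (ENSMUSG00000017499, chromosome 11), the ATPase that works with the origin recognition complex, had 3.96 and 8.76 in KO replicates 1 and 8, against 10.4 and 4.77 in WT replicates 3 and 6. The groups overlapped, and the 2 WT libraries differed from each other about as much as the 2 KO libraries. The log2 difference of Cdc6 was −0.22 (SE 0.59, limma adjusted p = 0.998), and it was 0.27 with either KO replicate 1 or WT replicate 3 left out. Cdt1 (ENSMUSG00000006585, chromosome 8), which brings the MCM ring to the origin and is destroyed in S phase, had 6.38 and 11.9 in KO replicates 1 and 8, against 13.1 and 9.85 in WT replicates 3 and 6. KO replicate 1 was the lowest, and KO replicate 8 lay between the WT libraries. The log2 difference of Cdt1 was −0.35 (SE 0.50, limma adjusted p = 0.997), and 0.054 with KO replicate 1 left out. The annotation places a read-through gene, Gm20388, over Cdt1 on the same strand. It had 4.40 and 0 in the KO libraries and 3.86 and 0 in the WT libraries, and the treatment of reads common to both genes is not known. Both loaders had a higher value in KO replicate 8 than in KO replicate 1, with ratios of 2.21 for Cdc6 (1.22 to 4.16) and 1.86 for Cdt1 (1.14 to 3.07). Of all tested genes, 13.3% were at least as far above KO replicate 1 as Cdc6, and 17.4% as far as Cdt1.

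Mcm10 (ENSMUSG00000026669, chromosome 2), which is no part of the ring, had 7.92 and 12.1 in KO replicates 1 and 8, against 9.07 and 5.40 in WT replicates 3 and 6. The groups overlapped, and the log2 difference was 0.43 (SE 0.51, limma adjusted p = 0.987). It was 0.10 when WT replicate 6 was left out, 0.15 when KO replicate 8 was, 0.71 when KO replicate 1 was and 0.76 when WT replicate 3 was. Pcna (ENSMUSG00000027342, chromosome 2), the clamp, had 41.1 and 33.2 in the KO libraries and 78.4 and 68.6 in the WT libraries. Both KO values were below both WT values, with a gap wider than the spread within either pair. Its mean was 37.2 ± 5.57 in KO and 73.5 ± 6.89 in WT (SD, n = 2 each), so the KO mean was 50.6% of the WT mean. The log2 difference of Pcna was −0.97 (SE 0.41, unadjusted p = 0.0496, limma adjusted p = 0.926), the most negative among the members, and it ranked at place 642 of 12304 genes by p. Leaving out KO replicate 8 gave −0.82, and leaving out KO replicate 1 gave −1.12. The annotation also holds Pcna-ps1 and Pcna-ps2, pseudogenes of Pcna that are not among the listed genes, and the treatment of reads that match both is not known.

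**Figure D3:**
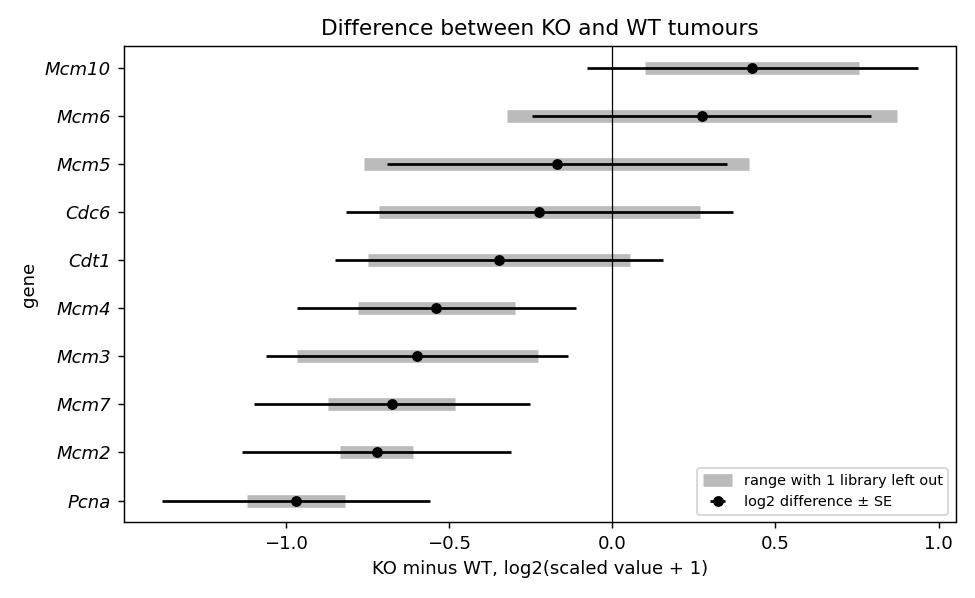
KO minus WT difference of each member on the log2(scaled value + 1) scale (points), with its standard error from limma (lines) and the range when 1 library is left out (grey bars). The range stays below 0 for Pcna, Mcm2, Mcm7, Mcm3 and Mcm4, above 0 for Mcm10, and crosses 0 for Mcm5, Mcm6, Cdc6 and Cdt1.

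Set against the WT mean one KO library at a time, the members differed more among themselves in KO replicate 8. In KO replicate 1, 9 of the 10 were below both WT libraries, all except Mcm10, and none was above both. Of all tested genes, 34.1% were below both in that library. In KO replicate 8, 5 were below both WT libraries and 3 above both, namely Mcm5, Mcm6 and Mcm10, where 40.8% and 34.9% of all tested genes were. The members' median log2 difference from the WT mean was −0.60 and −0.29 in KO replicates 1 and 8, against −0.02 and −0.08 for all tested genes. The WT libraries also differed in one direction: 9 of the 10 members were higher in WT replicate 3 than in WT replicate 6, against 55.0% of all tested genes.

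**Figure D4:**
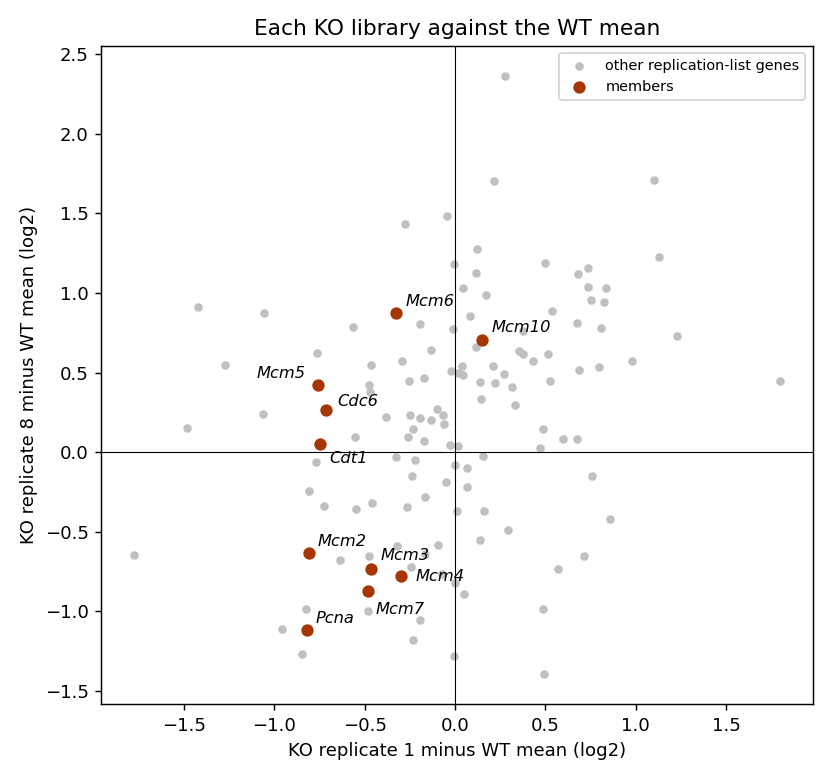
Log2 difference from the WT mean in KO replicate 1 (horizontal) and KO replicate 8 (vertical) for the 10 members (dark) and 120 other replication genes (grey). Mcm2, Mcm3, Mcm4, Mcm7 and Pcna are below 0 on both axes, and Mcm5, Mcm6, Cdc6 and Cdt1 are below 0 in KO replicate 1 and above it in KO replicate 8.

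The authors' deposited table gives the same order at its ends. In the authors' deposited table the log2 fold change was −0.98 for Pcna (adjusted p = 0.787), −0.74 for Mcm2 (0.909) and −0.68 for Mcm7 (0.983). In the authors' deposited table it was 0.40 for Mcm6 and 0.45 for Mcm10, both with an adjusted p of 0.999.

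The rest of the replication machinery was measured in the same libraries. Of 120 other genes on 10 replication lists, all tested, 68 were higher and 52 lower in KO, with a median log2 difference of 0.08. The count past the threshold was 0 in limma, edgeR's quasi-likelihood test and DESeq2. In limma 1 of the 120, Cdkn1a, had an unadjusted p under 0.05, against 5.25% of all tested genes. Both KO libraries were above both WT libraries for 24 of the 120 and below them for 14, where 14.5% and 19.3% of all tested genes were. The difference between the members and these genes was not tested.

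Among genes that act before or with the ring, the named origin recognition subunits did not pass the threshold. Orc6 had 10.8 and 14.9 in the KO libraries and 4.63 and 8.58 in the WT libraries. Orc4 had 10.1 and 13.1 against 5.79 and 7.63, and Orc3 had 7.48 and 9.02 against 7.34 and 4.13. For these 3 subunits both KO values were above both WT values. Orc1, the subunit that cycles with the cell cycle, overlapped, with 4.40 and 1.80 in KO and 4.25 and 6.67 in WT. Of the 9 genes of that list, which include Cdc6 and Cdt1, 6 were higher and 3 lower, with a median of 0.36. In that list, 5 genes had both KO values above both WT values and 0 had both below. Of all tested genes, 14.5% and 19.3% had these patterns.

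Factors that limit or remove licensing were split, with 3 of 8 higher and 5 lower (median −0.03). Cul4a, a ubiquitin ligase scaffold in the path that degrades CDT1, had 46.8 and 51.0 in KO and 21.0 and 32.1 in WT. Its adaptor Ddb1 had 131.5 and 91.7 in KO and 159 and 213 in WT, and Dtl, the subunit that recognises CDT1 on PCNA, had 5.06 and 5.67 against 5.98 and 8.90. Both KO values were above both WT values for Cul4a, and below both for Ddb1 and Dtl. Fbxo31 had 3.52 and 9.28 in KO and 3.28 and 3.81 in WT, an overlap.

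Helicase partners and firing factors had a median of 0.07, with 8 of 14 higher. Dbf4, the activating subunit of the kinase that fires origins, had 25.5 and 29.4 in KO and 17.8 and 10.8 in WT. Rif1, which counters that kinase, had 49.9 and 37.4 against 26.8 and 22.9, so both were higher in each KO library than in each WT library. Mtbp overlapped, with 10.8 and 3.87 in KO and 14.1 and 8.26 in WT, as did Donson, with 3.52 and 4.90 against 3.67 and 1.59. The paralogs Mcm8 and Mcm9, which form a separate complex in recombination repair, also overlapped. Mcm8 had 3.08 and 7.22 in KO and 3.86 and 1.91 in WT, and Mcm9 had 19.6 and 7.47 against 19.1 and 5.40.

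At the fork, polymerase and primase genes had a median of 0.03 (7 of 12 higher). Pole3 had 12.1 and 13.4 in KO and 5.21 and 9.85 in WT, while Prim2 had 6.60 and 6.18 against 9.84 and 6.67. Prim1 and Pole overlapped, with 14.1 and 12.4 in KO against 15.1 and 4.45 in WT for Prim1 and 35.2 and 51.8 against 58.5 and 17.8 for Pole. The list of the clamp, its loader and lagging strand enzymes, which includes Pcna, had a median of −0.10 (7 of 18 higher). Its closest match to Pcna in size was Fen1, the flap nuclease that binds PCNA, with 11.9 and 10.6 in KO and 30.1 and 19.1 in WT (log2 difference −1.03, limma adjusted p = 0.926). Rfc3 had 9.24 and 4.64 in KO and 11.6 and 9.85 in WT, and Rpa1 had 22.9 and 34.3 against 42.5 and 39.1. Rfc5 overlapped, with 10.996 and 25.8 in KO and 12.2 and 8.26 in WT.

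Of 10 genes of nucleotide supply, 8 had a lower mean log2 value in KO and 2 a higher one, with a median of −0.43. None of the 10 passed the threshold or had an unadjusted p under 0.05 in limma, where 5.25% of all tested genes had the latter. In 3 of the 10, both KO values were below both WT values, and in 1 both were above. These patterns held for 19.3% and 14.5% of all tested genes. Tk1, thymidine kinase, had 12.8 and 9.28 in KO and 28.6 and 19.7 in WT (log2 difference −1.06, limma adjusted p = 0.926). Rrm1, the large subunit of ribonucleotide reductase, had 54.3 and 47.9 in KO and 82.8 and 69.6 in WT, and both genes were lower in each KO library than in each WT library. Rrm2, the S-phase small subunit, had 13.6 and 44.3 in KO replicates 1 and 8, against 37.6 and 42.3 in WT, so its KO libraries fell on either side of WT as those of Mcm5 and Mcm6 did. Rrm2b, the p53-induced small subunit, had 5.06 and 8.25 in KO and 0.772 and 3.50 in WT.

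**Figure D5:**
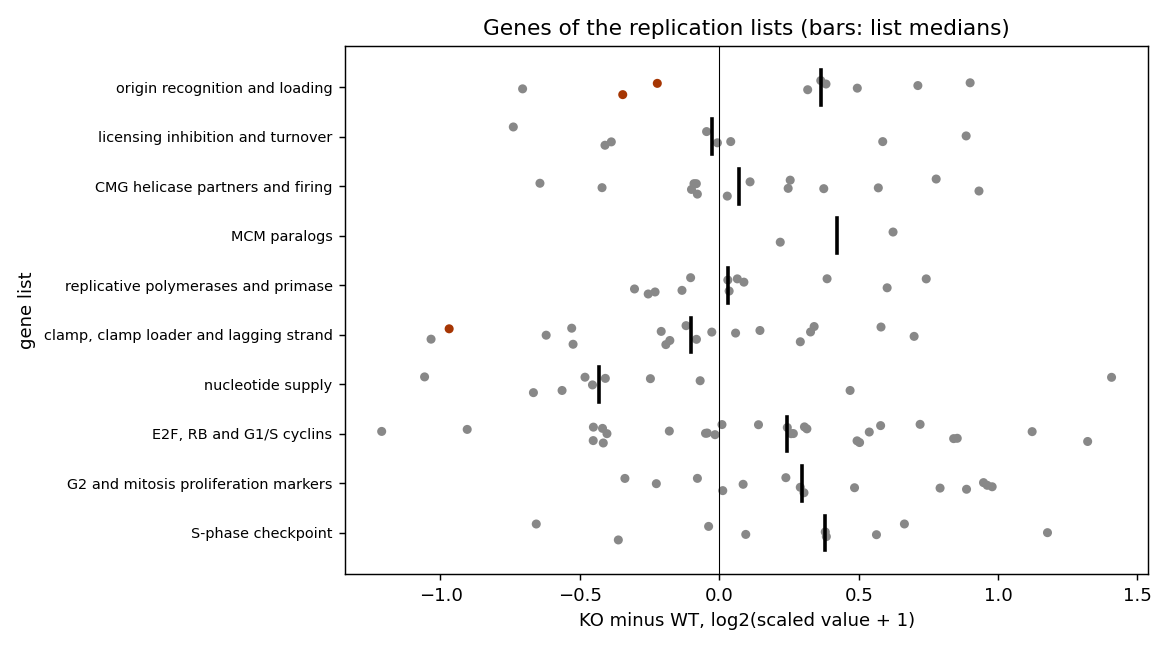
KO minus WT difference on the log2(scaled value + 1) scale for each gene of the 10 replication lists (points; Cdc6, Cdt1 and Pcna dark) with each list's median (bars). Medians lie between −0.43 (nucleotide supply) and 0.42 (the 2 MCM paralogs).

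Regulators of the G1/S step were mixed, with 16 of 27 higher and a median of 0.24. Cdkn1a, the p21 inhibitor of cyclin-dependent kinases that also binds PCNA, had 14.5 and 33.0 in KO and 47.3 and 57.5 in WT. Cdkn2a, the locus of p16 and p19ARF, had 18.03 and 6.44 in KO and 5.21 and 3.81 in WT. Cdk6 had 53.4 and 229.9 in KO replicates 1 and 8, against 34.2 and 56.2 in WT, and Ccnd2 had 115 and 103 in KO against 141 and 296 in WT. Genes of the S-phase checkpoint had a median of 0.38 (6 of 9 higher). Chek1 had 6.38 and 6.18 in KO and 9.07 and 12.1 in WT, Atr had 15.2 and 16.2 against 13.1 and 2.86, Atrip had 4.84 and 3.87 against 2.51 and 2.22, and Tipin had 13.6 and 14.7 against 8.69 and 9.85.

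Of 14 markers of G2 and mitosis, 11 had a higher mean log2 value in KO and 3 a lower one, with a median of 0.30 and 0 past the threshold. Mki67, the Ki-67 antigen of cycling cells, had 318 and 311 in KO and 224 and 147 in WT, and both KO values were above both WT values. Bub1 had 14.3 and 9.79 in KO and 6.37 and 4.77 in WT, Birc5 had 11.7 and 15.98 against 8.49 and 5.08, and Kif11 had 21.3 and 26.5 against 20.7 and 7.31. These 4, named by smallest p, were all the markers of the 14 with both KO values above both WT values, and 1 marker had both below. Of all tested genes, 14.5% and 19.3% had these patterns. The 3 lower markers were Plk1 (log2 difference −0.34), Ube2c (−0.23) and Aurkb (−0.08).

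The summed level of Mcm2 to Mcm7 was 178 and 207 in KO replicates 1 and 8 and 286 and 234 in WT replicates 3 and 6. The sum of the 14 G2 and mitosis markers was 616 and 651 in KO and 555 and 336 in WT. The ratio of the helicase sum to the marker sum, which no scaling between libraries can move, was 0.290 and 0.319 in KO and 0.516 and 0.699 in WT. The groups did not overlap, and the mean ratio was 0.304 ± 0.0206 in KO and 0.607 ± 0.129 in WT (SD, n = 2 each). The exact two-sided permutation test gave p = 0.333, the smallest value it can give with 2 against 2 libraries. This ratio was chosen after the values were seen. Mki67 made up much of the marker sum. With the 13 other markers alone, the ratio was 0.598 and 0.611 in KO and 0.865 and 1.24 in WT. Those 13 markers by themselves overlapped, with sums of 298 and 340 in KO and 331 and 189 in WT.

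Transcript length and marker genes of other cell types were set beside these values. Over 11582 tested genes with a coding transcript, log2 difference and transcript length had a Spearman correlation of 0.166, so longer transcripts tended to be higher in KO, and over the 10 members it was 0.358. Pcna had the shortest transcript of the set (1518 bases) and Mcm10 the longest (4867 bases). The transcript of Mki67 has 10061 bases, and the 13 other G2 and mitosis markers had a median of 2199 bases. Suprabasal keratinocyte genes, 11 of 11 listed, summed to 2715 and 150 in KO replicates 1 and 8. In WT replicates 3 and 6 they summed to 13074 and 3600. Of these genes, 3 (Krt1, Dsc1 and Dsg1a) were at 0 in KO replicate 8. Krt4 and Krt13 made up most of these sums. Of the 11, 10 had a lower mean log2 value in KO. The 1 higher gene, Ivl, had 4.40 and 5.67 in KO and 1.93 and 2.54 in WT. The 9 basal keratinocyte genes summed to 19088 and 5275 in KO and 22492 and 20783 in WT. Krt5 and Krt14 made up most of these sums, and the list was split, with 4 genes higher in KO and 5 lower. Both KO values were above both WT values for 3 of them, Itga6, Lama3 and Bnc1, and below for 1, Krt14. Over all tested genes, both KO values were above in 14.5% and below in 19.3%. The 9 listed macrophage genes summed to 91.9 and 198 in KO and 35.7 and 41.3 in WT, with Cd163 at 0 in WT replicate 6. Of the 10 symbols of the lymphocyte list only 2 were listed, Jchain and Ptprc, and Ptprc is not particular to lymphocytes. They summed to 11.7 and 27.3 in KO and 1.93 and 2.54 in WT, where Jchain was at 0. Ptprc alone had 3.74 and 19.3 in KO. The 7 fibroblast genes summed to 127 and 867 in KO and 148 and 249 in WT. The 9 listed skeletal muscle genes summed to 22.0 and 382 in KO and 5.21 and 26.7 in WT, with Myh4 at 0 in KO replicate 1 and WT replicate 3 and Mb and Tnnt3 at 0 in WT replicate 6. The 6 smooth muscle genes summed to 136 and 173 in KO and 19.5 and 78.5 in WT. Des made up most of the sum in KO replicate 8, with 5.06 and 114 in KO and 1.93 and 3.18 in WT. Acta2 overlapped, with 107 and 28.6 in KO and 10.04 and 66.7 in WT. The 5 others each had both KO values above both WT values. The 7 endothelial genes summed to 24.6 and 23.7 in KO and 34.2 and 49.2 in WT. Of the 6 endothelial genes tested, 5 were lower in KO and 1, Pecam1, was higher. The fibroblast sums overlapped between the groups, as did the skeletal muscle sums, and both were highest in KO replicate 8. The part of transcript length and of these marker levels in the members' differences was not tested.

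The genes whose pattern over the 4 libraries was most like the mean of Mcm2 to Mcm7 were not replication genes of the lists. By Euclidean distance between centred log2 profiles, the nearest 5 of 8478 genes with a mean value of at least 5 were Wdr4, Zfp865, Thra, Txndc11 and Eif2ak1, at distances of 0.04 to 0.07. Wdr4 had 5.28 and 6.44 in KO replicates 1 and 8 and 8.69 and 6.99 in WT replicates 3 and 6. Members themselves lay farther from that mean. Mcm2 was at 0.32, with 2.91% of the 8478 genes nearer, and Mcm6 at 0.97, with 53.1% nearer. A likeness over 4 libraries is a description only.

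Without KO replicate 1 limma called 4.14% of all tested genes, and without KO replicate 8 it called 0.0488%, and in both fits 0 of the 10 members passed. In those fits the lone KO library is assumed to vary like the WT pair.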

How the data were processed

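Per the labels' protocols, tumour RNA was harvested in Trizol and libraries were built by TruSeq. The submitters' processing notes name DESeq and build mm9; aligner, counter and strand use are not given there. The authors deposited scaled read signal per gene and library, every value a whole multiple of 1 step per library; dividing by it recovered whole reads for 100% of values (tolerance 0.001). The authors also deposited log2 fold changes and mean log2 CPM (unused), and p-values with adjusted p-values, used only where their table is cited. The members and gene lists were chosen with earlier results of these data known.

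The filter kept the 12304 genes with 2 or more libraries at 1 or above. They were fitted together with limma 3.58.1 in R 4.3.3 on log2(value + 1), trended prior, genotype alone, two-sided, Benjamini-Hochberg adjustment, threshold 0.05. The pseudocount understates fold changes of low genes. edgeR 4.0.16 and DESeq2 1.42.0 on recovered reads, and no trend, another normalization, no filter, a pseudocount of 0.1 and leaving out each library, were alternatives. The fits were tested on simulated data. Named genes were all members, up to 4 per replication list by smallest p, and the 5 most alike. Cell type sums cover all listed markers. Transcript lengths are from GENCODE M21. Protein sequences were not used here.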

Additional observations from a re-analysis of the deposited data

How the results depend on the processing

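No paired analysis was possible because the KO and WT libraries share no replicate number. In all 11 alternatives 0 of the 10 members passed the threshold. Of 110 values, 103 kept direction and side; the cause of the others was not tested. Mcm5 turned to 0.012 in DESeq2. Leaving out 1 library gave ranges of −0.76 to 0.42 for Mcm5, −0.32 to 0.87 for Mcm6, −0.72 to 0.27 for Cdc6 and −0.75 to 0.054 for Cdt1. The members' median ranged from −0.63 (without WT replicate 6) to −0.19 (without WT replicate 3), and that of the other replication genes from −0.058 to 0.29, with 0 to 1 past the threshold (Cdk6 without KO replicate 1, adjusted p = 0.0296). Over all genes, limma called 2 with no filter and 0 with a pseudocount of 0.1, edgeR's quasi-likelihood test 0, DESeq2 46, and limma 0 to 510 with 1 library left out. KO over WT, the helicase to marker ratio was 0.501, 0.574 without Mki67, 0.427 with Mki67 alone, and 0.435 to 0.590 with 1 library left out; these alternatives were chosen after seeing the data. The 2 libraries per group and, for the loaders, 15 to 68 reads per library limit precision.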
